A study of Bos taurus with 2 samples.

Results

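The cells described here are newborn neurons of day 25 bovine chimeric embryos, chosen by a rule on transcripts of 6 genes. A barcode was a member when INSM1, HES6 and DLL3 together had 3 or more UMI (unique molecular identifiers, the tags that count captured transcripts) with at least 2 of the 3 genes detected, TUBB3 and STMN2 together had 2 or more UMI, and DBH had none. Barcodes were kept with at least 1000 UMI and 500 genes. Of 4159 kept barcodes 133 were members, 52 of 1843 in replicate 1 and 81 of 2316 in replicate 2. The share was 2.82% in replicate 1 (exact Clopper-Pearson 95% interval 2.11 to 3.68%) and 3.50% in replicate 2 (2.79 to 4.33%), a mean of 3.16% ± 0.478 (SD, n = 2). The intervals overlap and cover counting error only. The share was 5.32% among barcodes of 5000 to 15000 UMI, so it depends on depth.

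The series is 1 group of 2 libraries of embryos made chimeric with bovine embryonic stem cells. No genotype, treatment or second condition is given in the labels, and separate embryos are not named for the 2 libraries. The p-values compare units of cells, with error taken from how far these 2 libraries disagree on a difference and from variance shared across genes. Whether they cover any spread between embryos is not known. Embryos were dissociated with papain, and cells were sorted before loading on a 10x droplet system, and the sources used here do not give the gate. Members were deeper than the rest, with a median of 9178.5 and 9959 UMI against 5150 and 5819 in all other kept barcodes. They were also lower in mitochondrial counts, at 0.299% and 0.255% against 0.660% and 0.583%. In all, 6 barcode sequences occurred in both libraries, and 1 and 6 kept barcodes were called doublets. None of these was a member, and whether members include doublets that were not called was not tested.

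As background, a neural progenitor becomes a neuron through lateral inhibition. A cell with high proneural factor activity presents Notch ligands of the Delta family, and neighbours in which Notch is activated express HES repressors and remain progenitors. INSM1 is a zinc finger factor of cells leaving the progenitor state, HES6 is a HES family member that opposes HES1, and DLL3 is a Delta family protein that acts mainly inside the cell to dampen Notch signalling. TUBB3 and STMN2 encode a neuronal tubulin and a microtubule regulator of growing axons, DBH is the enzyme that makes noradrenaline, and PENK is the precursor of enkephalin peptides.

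The genes of the rule chose the members, so their levels are a description. In CPM (counts scaled to the same total in every unit of cells), given for replicate 1 and then replicate 2, INSM1 stood at 336 and 298 CPM against 9.61 and 8.87 CPM in all other kept barcodes. HES6 stood at 923 and 581 CPM against 26.1 and 29.0 CPM, and DLL3 at 462 and 455 CPM against 5.18 and 6.05 CPM. TUBB3 stood at 849 and 967 CPM against 117 and 135 CPM, and STMN2 at 2522 and 2925 CPM against 414 and 454 CPM. Both libraries of the newborn neurons were above both libraries of the rest for each of the 5 genes. In single members INSM1 had a median of 2 UMI in both libraries and a highest count of 9 and 10, HES6 a median of 2 and 3 with a highest count of 73 and 30, and DLL3 a median of 1.5 and 1 with a highest count of 33 and 32. Detection of the 3 genes was uneven: 49 members had all 3 genes, 48 had INSM1 and HES6 only, 30 had HES6 and DLL3 only, and 6 had INSM1 and DLL3 only.

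**Figure D1:**
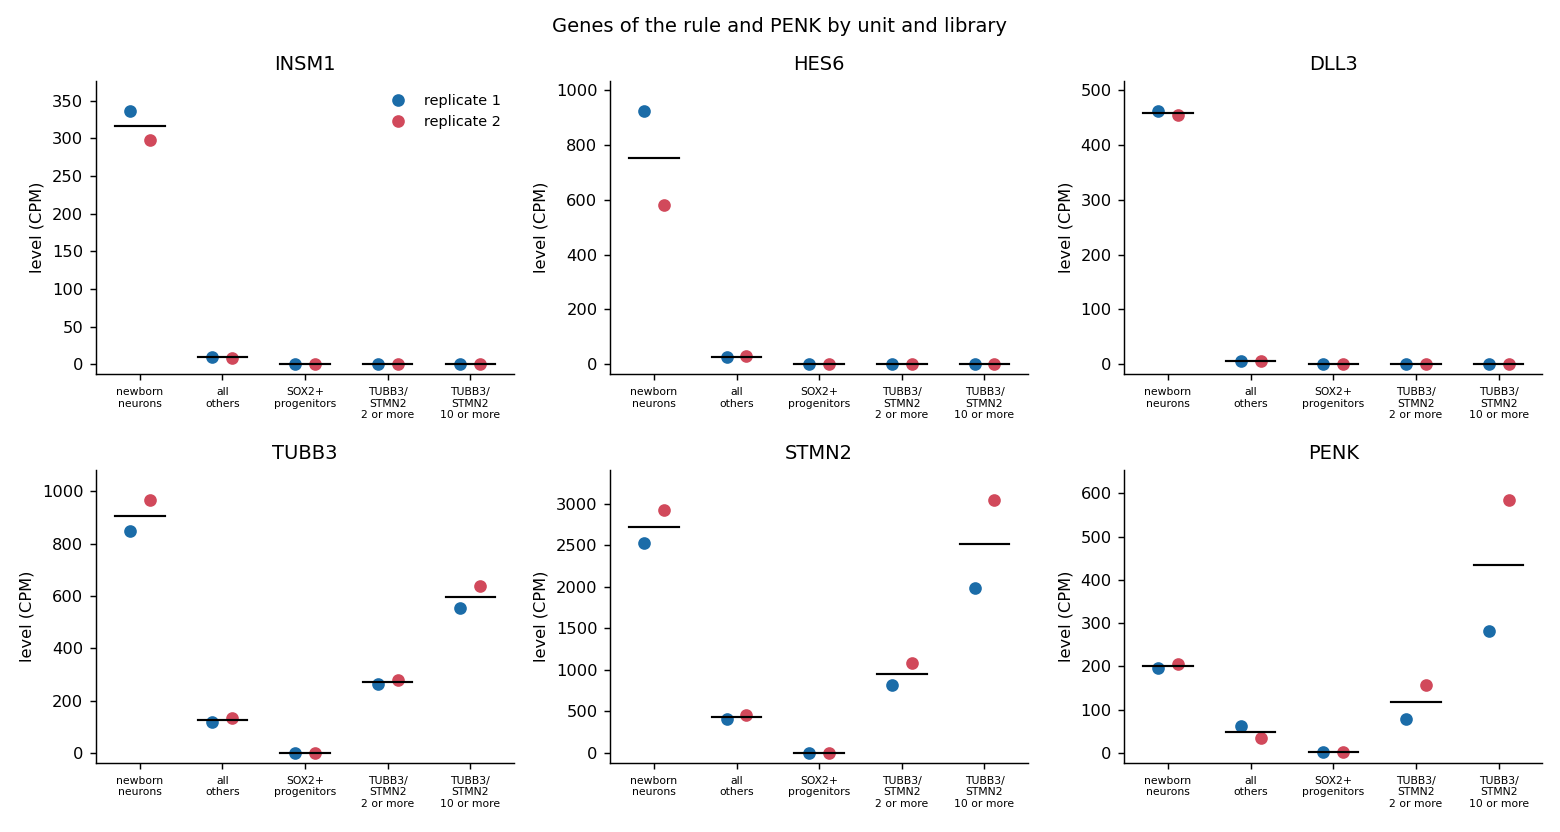
Level in CPM (vertical axis) of the genes of the rule and PENK in 5 units of cells (horizontal axis), with 1 point per library and a black line at the mean; the last 2 units are TUBB3/STMN2-positive barcodes without INSM1, HES6 or DLL3, with 2 or more or 10 or more UMI of TUBB3 and STMN2. STMN2 in newborn neurons (2522 and 2925 CPM) lies in the range of the 10-or-more unit (1988 and 3044 CPM), while PENK lies below it.

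PENK, listed as a marker of these cells, was the exception. It stood at 197 and 205 CPM against 63.1 and 34.5 CPM, but only 11 of 133 members had a PENK UMI. In replicate 1 a single cell held 80.4% of the PENK UMI, and in replicate 2 the 3 highest cells held 79.7%. PENK was thus a transcript of few members. At the edge of the rule, 7 and 13 members had exactly 3 UMI of INSM1, HES6 and DLL3, and 11 and 19 barcodes that met every other condition had 2. Members with 3 UMI had STMN2 at 3371 and 2754 CPM and GADD45G at 104 and 67.2 CPM, and barcodes with 2 UMI had STMN2 at 2599 and 2340.0 CPM and GADD45G at 28.3 and 25.4 CPM. STMN2 is a gene of the rule, and GADD45G came from 6 cells inside the threshold and 5 outside. Other genes were lower inside: GFP stood at 1478 and 1659.9 CPM inside and 2077 and 2004 CPM outside, and HOXB2 at 0 and 48.0 CPM and 70.6 and 139.5 CPM. A further 19 barcodes met the rule but for DBH, and their HAND2, a factor of autonomic neurons, stood at 1012 and 249 CPM.

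Free RNA can place a UMI in a cell that does not make it, so shares of cells were set beside collagen-rich barcodes (20 or more UMI of COL1A1, COL1A2 and COL3A1), which should lack neuronal transcripts. Their median depth was 11773 and 11127 UMI, above that of the members. HES6, a gene of the rule, had a UMI in 96.2% and 95.1% of members and 2.70% and 6.74% of collagen-rich barcodes. CRABP1 had a UMI in 78.8% and 84.0% of members and 59.5% and 66.3% of collagen-rich barcodes, a tissue that can make CRABP1 itself. After thinning every cell to 2000 UMI the CRABP1 shares were 63.5% and 77.8% and 29.7% and 19.3%. For CRABP1 the level tells more than detection.

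Against all other kept barcodes, the newborn neurons had a high level of proneural and early neuronal genes and a low level of connective tissue, blood and extraembryonic genes. Of 13292 genes tested with edgeR's quasi-likelihood test (Benjamini-Hochberg adjusted p under 0.05), 2335 (17.6%) were higher and 2443 (18.4%) lower (35.9% in either direction), with a median log2 fold change of -0.06 over all genes tested. These genes were counted in the cells that the rule chose, so the choice favours genes that accompany the rule's own. CRABP1, which binds retinoic acid in the cytoplasm, had the largest rise among the genes named by rule, with 12109.9 and 22094 CPM against 686 and 1063 CPM (log2 fold change 4.49, SE 0.11, adjusted p = 2.76e-38). It was uneven among members, with a median of 7.5 and 70 UMI per cell and a highest count of 862 and 884. CBFA2T3, a transcriptional corepressor that acts downstream of proneural factors, stood at 74.8 and 53.1 CPM against 3.48 and 4.54 CPM (log2 fold change 4.16, SE 0.34, adjusted p = 2.54e-15). OLFM1, a secreted glycoprotein of neurons, stood at 87.6 and 72.6 CPM against 6.31 and 6.12 CPM (log2 fold change 3.90, SE 0.28, adjusted p = 1.00e-17). In each of these genes both libraries of the members lay above both of the rest.

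Further named rises were LZTS1 (197 and 129.6 CPM, log2 fold change 3.73), NRN1 (98.3 and 157 CPM, 3.68), a neurite growth factor, IGFBPL1 (466 and 476 CPM, 3.51), ONECUT1 (130.4 and 139 CPM, 3.50) and ONECUT2 (286 and 251 CPM, 3.33), homeodomain factors of early-born neurons, TP53I11 (188 and 143 CPM, 3.46), ST18 (124 and 95.9 CPM, 3.46), a zinc finger factor of the MYT family, and DDC (77.0 and 86.8 CPM, 3.45), the decarboxylase of dopamine and serotonin synthesis. Of the ST18 UMI in members 19.7% came from 1 cell. Named falls were A2M, COLEC12, COL1A1, S100G, HBE1, KLK1, PAGE4 and DAB2. COL1A1, a fibrillar collagen, stood at 4.28 and 15.6 CPM against 386 and 619 CPM (log2 fold change -5.35, SE 0.23, adjusted p = 3.86e-27). HBE1, an embryonic globin, stood at 130.4 and 149 CPM against 3589.9 and 5597 CPM and is uncertain, since near-identical globin copies can share reads. A2M had 1 UMI in all members, 0.00889 times the pooled level of the reference (counting interval 0.000225 to 0.0496), and COLEC12 had 3, 0.0162 times the pooled level of the reference (counting interval 0.00335 to 0.0475).

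Markers of mesenchyme, trophoblast and erythroid cells were low in the members. The summed level of 8 mesenchyme markers was 126 and 137 CPM against 1379.6 and 2269 CPM in all other barcodes, and that of 6 trophoblast markers was 2.14 and 5.18 CPM against 345 and 133 CPM. Erythroid markers summed to 549 and 519.7 CPM against 11056 and 19281 CPM, with ALAS2, GATA1 and KLF1 at 0. Neural crest markers summed to 299 and 403 CPM against 175 and 148 CPM, with 2 of 8 higher in both libraries and SOX10 and FOXD3 at 0. Markers of autonomic neurons summed to 928 and 1021 CPM against 515 and 474 CPM, with 5 of 10 higher in both libraries, and stood at 668 and 697 CPM in collagen-rich barcodes. Those of sensory ganglia or placodes summed to 442 and 403 CPM against 136 and 119 CPM, with 6 of the 9 in the table higher. The part of these lineages in the differences below was not tested.

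**Figure D2:**
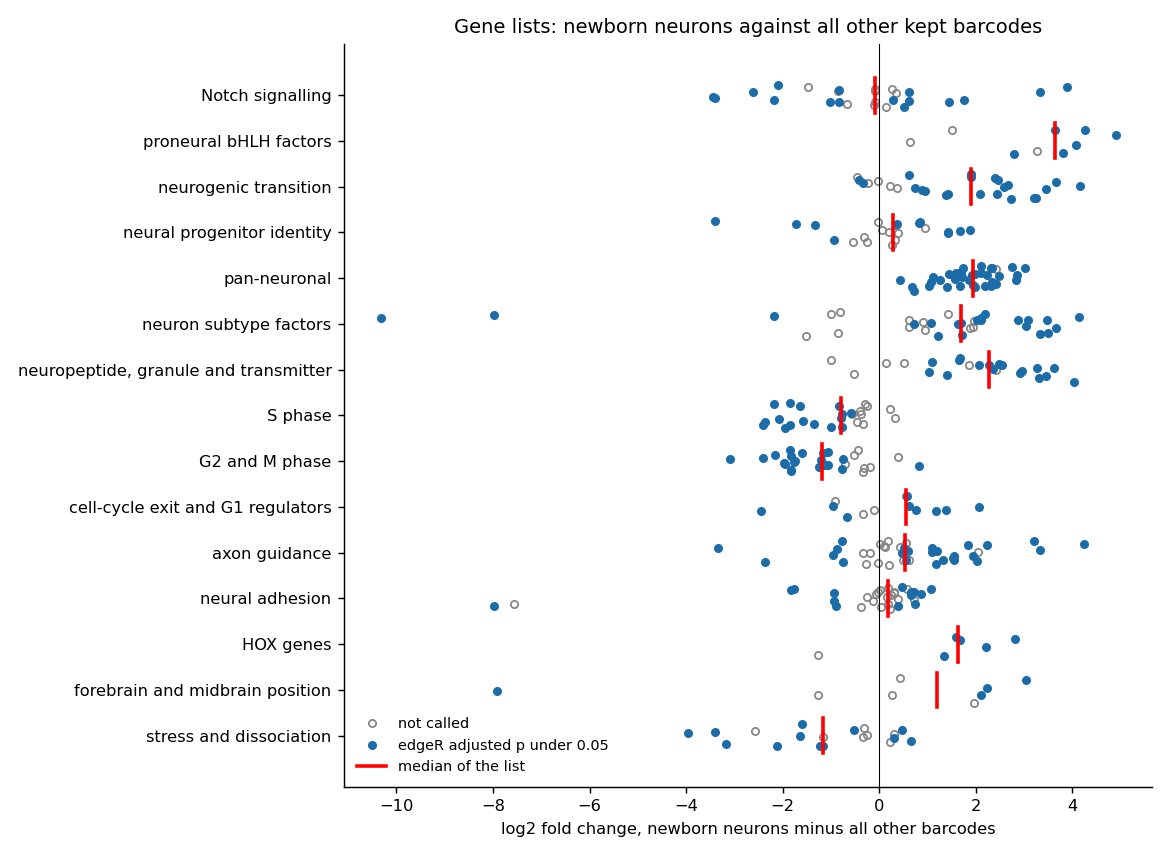
Log2 fold change of newborn neurons against all other kept barcodes (horizontal axis) for the tested genes of 15 lists (vertical axis); filled points passed the edgeR test, open points did not, and a red line marks the list's median. Nearly all pan-neuronal genes lie to the right and most S and G2/M genes to the left, with Notch genes on both sides; the 5 points on the far left are genes with no UMI in the members, whose fitted value is no measure of size.

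Notch pathway genes were called in both directions. Of 26 tested, 8 were higher and 8 lower against all other barcodes, with a median of -0.09 (4 and 3 with DESeq2). The edgeR shares over all genes tested were 17.6% higher and 18.4% lower. DESeq2 called fewer genes over all genes tested, so its counts here and below are not to be read against the edgeR shares. The ligand DLL1 stood at 42.8 and 76.5 CPM against 7.44 and 6.80 CPM (log2 fold change 3.33, SE 0.30, adjusted p = 1.27e-13). DLL4, another Delta ligand, stood at 25.7 and 6.48 CPM against 1.79 and 0.619 CPM (log2 fold change 3.88, SE 0.78, adjusted p = 5.89e-05), from 7 cells. The ligand JAG1 was lower, at 23.5 and 55.7 CPM against 101 and 80.2 CPM. Among receptors NOTCH2 stood at 10.7 and 15.6 CPM against 70.1 and 68.0 CPM (log2 fold change -2.11, SE 0.30, adjusted p = 9.69e-08) and NOTCH3 at 17.1 and 15.6 CPM against 35.1 and 32.6 CPM, both lower, whereas NOTCH1 did not pass (27.8 and 20.7 CPM against 20.9 and 22.5 CPM, adjusted p = 0.44) and NOTCH4 was higher at 21.4 and 6.48 CPM against 3.96 and 4.60 CPM. Both libraries of members were below both of the rest for JAG1, NOTCH2 and NOTCH3.

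Genes that Notch is known to activate differed among themselves. HES1, the repressor that HES6 opposes, stood at 15.0 and 6.48 CPM against 127 and 118 CPM (log2 fold change -3.41, SE 0.31, adjusted p = 8.81e-14). HES4 had 3 UMI in all members, 0.139 times the pooled level of the reference (counting interval 0.0286 to 0.410), HEY2 had 1, 0.0769 times the pooled level of the reference (counting interval 0.00194 to 0.432), and NRARP, a feedback inhibitor, stood at 0 and 5.18 CPM against 19.5 and 15.5 CPM and was also lower (log2 fold change -2.18). HES5 stood at 85.5 and 126 CPM against 89.6 and 87.6 CPM, with a fitted log2 fold change of 0.51 (adjusted p = 0.026) after TMM scaling although replicate 1 was lower in CPM, and 1 cell held 33.6% of its UMI. RBPJ, the DNA-binding partner of activated Notch, was slightly higher at 385 and 285 CPM against 268 and 241 CPM (log2 fold change 0.61). NUMBL, a Numb family adaptor, was higher at 29.9 and 27.2 CPM against 11.7 and 12.6 CPM, and NUMB itself did not pass (-0.11). A DLL1 UMI was found in 37 members and a HES1 UMI in 9.

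SOX2-positive progenitors, barcodes with SOX2 and with no UMI of TUBB3, STMN2, INSM1, HES6, DLL3 or DBH, numbered 428 and 533. Against them 2950 of 11669 tested genes (25.3%) were higher and 2710 (23.2%) lower (48.5% in either direction), with a median of -0.0031 over all genes tested. Of 24 Notch genes 7 were higher and 9 lower (median 0.0078). DLL1 stood at 42.8 and 76.5 CPM against 3.71 and 2.79 CPM (log2 fold change 4.55, SE 0.39, adjusted p = 3.04e-10) and HES1 at 15.0 and 6.48 CPM against 183 and 141 CPM (log2 fold change -3.69, SE 0.32, adjusted p = 1.02e-09). DLL1 was present in the progenitors at a low level and HES1 in the members at a low level, and the libraries of the 2 units did not overlap for either gene. HES5 was again no lower in the members, at 85.5 and 126 CPM against 81.7 and 97.1 CPM (log2 fold change 0.61, adjusted p = 0.025). This comparison shares the newborn sums with the others, so its values are set beside theirs and not counted as a repeat.

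**Figure D3:**
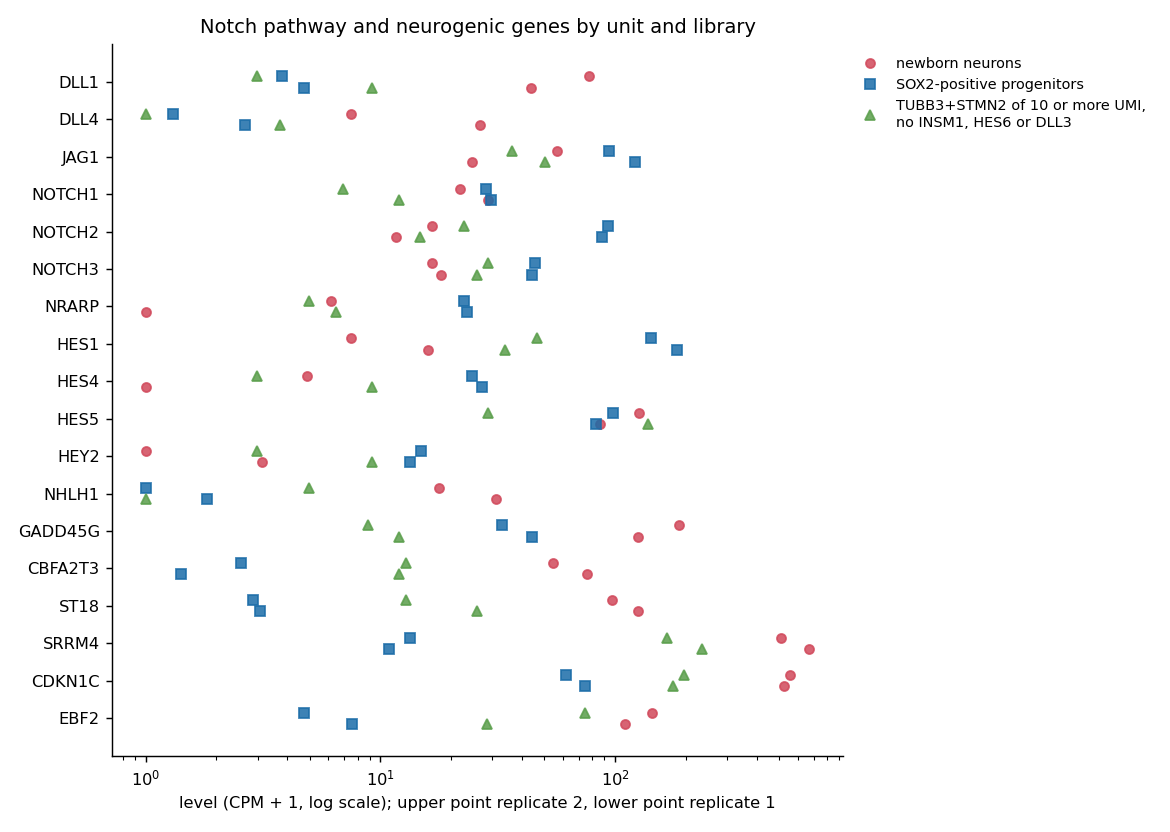
Level (CPM + 1 on a log axis) of Notch pathway and neurogenic genes (vertical axis) in newborn neurons, SOX2-positive progenitors and TUBB3/STMN2-positive barcodes with 10 or more UMI of these genes and no INSM1, HES6 or DLL3, with 1 point per library. DLL1, GADD45G and CDKN1C are highest in newborn neurons and HES1 is lowest there, while HES5 overlaps between units.

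Proneural and neurogenic genes rose in most cases. Of 9 proneural factors tested 6 were higher and 0 lower against all other barcodes (median 3.64), with NHLH1, NHLH2, BHLHE22, NEUROD1 and NEUROG2 among them. These were sparse. NHLH1, a factor of newly formed neurons, stood at 29.9 and 16.8 CPM against 0.565 and 1.10 CPM in 17 cells, and NEUROG2 was found in 5 members. Of 27 genes of the neurogenic transition 20 were higher and 2 lower (median 1.89), and against progenitors 20 were higher and 3 lower (median 2.27). By edgeR 17.6% of all genes tested were higher and 18.4% lower against all other barcodes, and 25.3% and 23.2% against progenitors. SRRM4, the splicing regulator of neuronal microexons, stood at 671 and 508 CPM against 83.3 and 63.3 CPM (log2 fold change 3.24, SE 0.13, adjusted p = 9.75e-29), and in progenitors at 9.90 and 12.4 CPM. SOX4 stood at 981 and 809 CPM and SOX11 at 923 and 832 CPM, both SoxC factors of young neurons, against 256 and 235 CPM and 289 and 263 CPM in the rest.

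EBF2 and EBF3, factors of migrating young neurons, stood at 109 and 143 CPM and 126 and 94.6 CPM (log2 fold changes 3.20 and 2.44). MYT1, a repressor of progenitor genes, stood at 55.6 and 37.6 CPM and had 1 UMI in all progenitors. GADD45G, a stress and growth arrest gene induced by proneural factors, stood at 124 and 187 CPM against 33.1 and 28.9 CPM (log2 fold change 2.58, SE 0.19, adjusted p = 2.36e-16). The genes that fell were ID2 and ID3, inhibitors of proneural factors, at 314 and 441 CPM against 610.4 and 571 CPM and 250.1 and 409.6 CPM against 456 and 511 CPM, and neither was called with DESeq2. ID1 fell against progenitors (log2 fold change -0.40). These falls were small beside the rises, and ID1 at 524 and 744 CPM was abundant in the members.

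Progenitor genes did not move as a block. Of 22 tested, 7 were higher, 4 lower and 11 not called against all other barcodes (median 0.29), and 4 and 2 were called with DESeq2. Over all genes tested 17.6% were higher and 18.4% lower by edgeR, so the lower edgeR count was near the background. SOX2 itself stood at 235 and 271 CPM against 245 and 252 CPM (log2 fold change 0.26, SE 0.13, adjusted p = 0.12), and 81 of 133 members had a SOX2 UMI, 74 of them together with the neuronal RNA-binding protein gene ELAVL4. NES, an intermediate filament of progenitors, stood at 171 and 272 CPM against 655 and 659 CPM (log2 fold change -1.33, SE 0.13, adjusted p = 2.02e-11), and SLC1A3, the radial glial glutamate transporter, at 2.14 and 6.48 CPM against 60.8 and 59.1 CPM (log2 fold change -3.40, SE 0.41, adjusted p = 7.26e-10). PAX6, in contrast, was higher at 252 and 249 CPM against 124 and 97.0 CPM (log2 fold change 1.43), as were POU3F2 at 119.7 and 111 CPM against 36.7 and 36.4 CPM and FABP7 at 137 and 168 CPM against 62.0 and 71.2 CPM. After thinning to 2000 UMI, SOX2 was found in 28.8% and 25.9% of members and 35.0% and 35.5% of all other barcodes. Its levels overlapped between members and the rest, while those of NES and SLC1A3 did not.

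Cell division genes were low. Of 25 S phase genes 0 were higher and 16 lower against all other barcodes (median -0.80), and 0 and 17 against progenitors (median -0.99). Of 28 G2 and M phase genes 1 was higher and 20 lower (median -1.19), and 1 and 20 against progenitors (median -1.38). By edgeR 17.6% of all genes tested were higher and 18.4% lower against all other barcodes, and 25.3% and 23.2% against progenitors. With DESeq2 8 S phase and 12 G2 and M genes were lower against all other barcodes, and none was higher. The summed G2 and M level was 725 and 835 CPM in members, 2085 and 1981 CPM in all other barcodes and 2438 and 2269.8 CPM in progenitors, with no overlap between libraries. CDK1, the mitotic kinase, stood at 2.14 and 5.18 CPM against 44.7 and 37.2 CPM (log2 fold change -3.09, SE 0.46, adjusted p = 2.38e-07), and MKI67 at 21.4 and 19.4 CPM against 84.0 and 76.0 CPM (log2 fold change -1.74, SE 0.27, adjusted p = 5.04e-07). The gene that rose, CENPA, a centromeric histone, stood at 27.8 and 24.6 CPM against 17.1 and 17.3 CPM; it was not called against all other barcodes with DESeq2, without the filter on low counts or among barcodes of 5000 to 15000 UMI.

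A minority of members had cell cycle transcripts, with MKI67 in 13 of 133 and CDK1 in 5. Inhibitors of cyclin-dependent kinases differed among themselves. CDKN1C, an inhibitor linked to neuronal cell cycle exit, stood at 524 and 555 CPM against 117 and 124 CPM (log2 fold change 2.39, SE 0.12, adjusted p = 2.76e-23) and at 73.5 and 60.5 CPM in progenitors. CDKN2D stood at 17.1 and 38.9 CPM against 8.95 and 7.63 CPM and CDKN1B at 85.5 and 76.5 CPM against 39.6 and 43.6 CPM, both higher, and CDKN1A, the inhibitor induced by DNA damage, was lower at 2.14 and 3.89 CPM against 20.3 and 20.7 CPM (log2 fold change -2.44). By edgeR 17.6% of all genes tested were higher and 18.4% lower. Of 13 exit and G1 regulators tested 6 were higher and 3 lower (median 0.55), the lower being CDKN1A, RB1 and RBL1. With DESeq2 4 were higher and 0 lower, and at 5 or more UMI of INSM1, HES6 and DLL3 the median was 0.21.

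**Figure D4:**
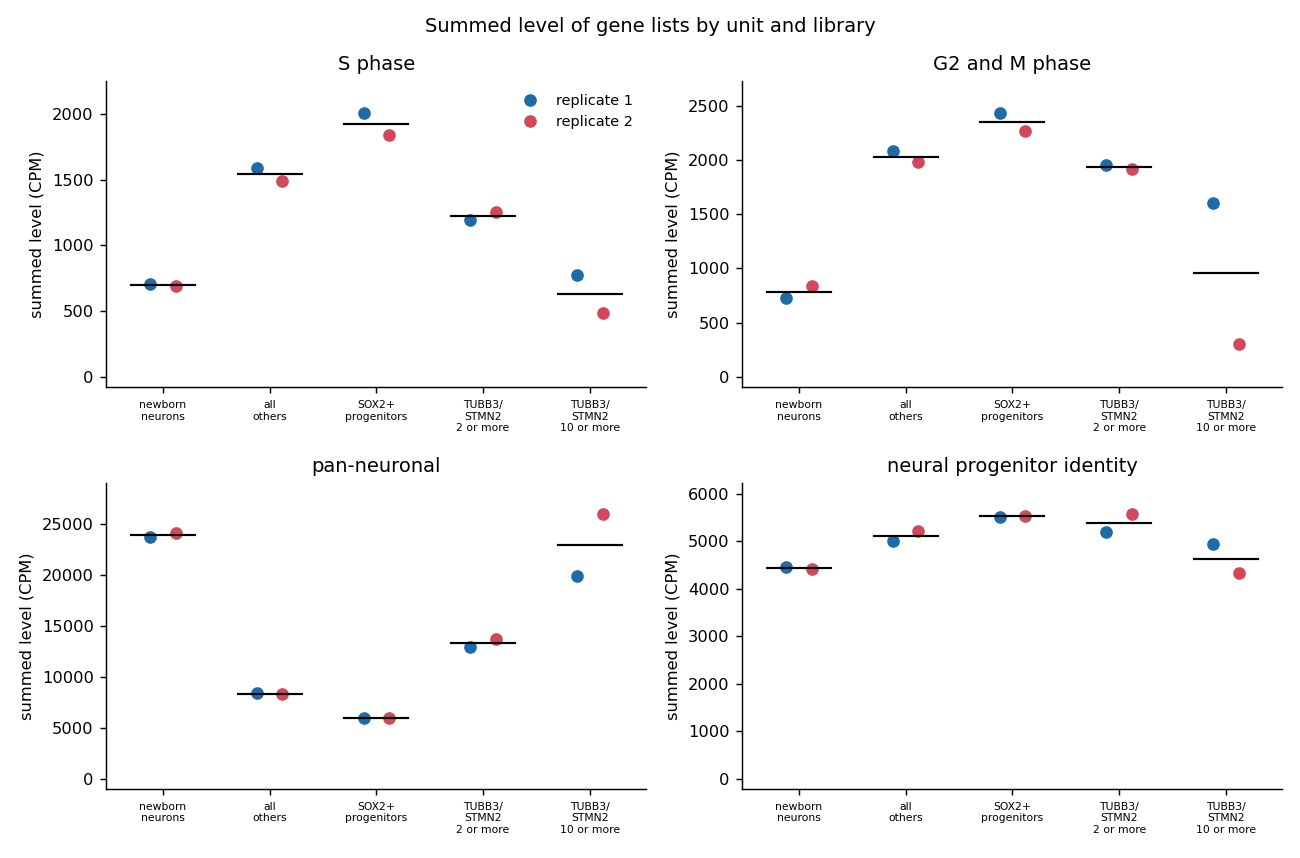
Summed level in CPM (vertical axis) of 4 gene lists in the 5 units of cells (horizontal axis), with 1 point per library and a black line at the mean. Newborn neurons lie below progenitors in both cell cycle lists, and the replicates of the 10-or-more unit lie far apart for G2 and M genes, at 1606 and 304 CPM.

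Neuronal genes were already high in the members. Of 37 pan-neuronal genes 36 were higher and 0 lower against all other barcodes (median 1.93); against progenitors 36 of 36 tested were higher, a unit that was chosen to lack TUBB3 and STMN2. ELAVL4 stood at 575 and 617 CPM against 87.2 and 86.5 CPM (log2 fold change 3.01, SE 0.13, adjusted p = 1.72e-27), MLLT11 at 543 and 632 CPM against 92.4 and 99.2 CPM (log2 fold change 2.84, SE 0.13, adjusted p = 1.41e-26), and DCX, the microtubule protein of migrating neurons, at 500.2 and 389 CPM against 115 and 93.4 CPM (log2 fold change 2.32, SE 0.13, adjusted p = 4.75e-22). In each the libraries did not overlap. TUBB2A and TUBB2B also rose, but as near-identical copies their counts may be mixed. Of 23 granule and transmitter genes 17 were higher and 0 lower (median 2.27), and 11 and 0 with DESeq2. By edgeR 17.6% of all genes tested were higher and 18.4% lower against all other barcodes, and 25.3% and 23.2% against progenitors. The pan-neuronal, granule and transmitter genes differed little from TUBB3/STMN2-positive barcodes with 10 or more UMI of TUBB3 and STMN2, as described below. When members needed 5 or more UMI of INSM1, HES6 and DLL3, 11 of 21 were higher and 1 lower (median 0.90). SCG3, a secretory granule protein, stood at 366 and 511 CPM against 69.1 and 63.2 CPM and was found in 107 members, and SCG2 at 139 and 156 CPM against 21.5 and 14.5 CPM in 34.

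Subtype genes were each carried by a fraction of members. Of 33 subtype factors tested 18 were higher and 3 lower against all other barcodes (median 1.69), and 13 and 0 with DESeq2. By edgeR 17.6% of all genes tested were higher and 18.4% lower. Against TUBB3/STMN2-positive barcodes with 10 or more UMI of TUBB3 and STMN2, described below, 0 of 18 subtype factors tested were called. ONECUT1 or ONECUT2 had a UMI in 77 members, DLX1 or DLX5 in 43, NKX2-2 in 24, LHX9 in 13 and LHX1 in 11. HAND2, an autonomic factor, had a UMI in 19 members, although DBH was absent by the rule. GAD1, GAD2 or SLC32A1, genes of inhibitory transmission, had a UMI in 18 members and SLC17A6, the vesicular glutamate transporter of excitatory neurons, in 8. GATA3, a factor of inhibitory and noradrenergic neurons, stood at 641 and 693 CPM against 355 and 324 CPM. LMX1A, a roof plate and dopaminergic factor, had 0 UMI in members and stood at 22.9 and 25.2 CPM elsewhere, so it was at least 10.0-fold lower, with a floor of 3 counts over both libraries.

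Against progenitors named rises were SCG2, ONECUT1, PENK, TFAP2B, CRABP1, STMN4 and CBFA2T3. SCG2 stood at 139 and 156 CPM against 1.24 and 0.621 CPM, PENK at 197 and 205 CPM against 1.65 and 2.17 CPM and STMN4 at 250.1 and 229 CPM against 5.36 and 2.17 CPM. Their log2 fold changes were 7.61, 7.0 and 6.37, and each was near 0 CPM in progenitors, which lack TUBB3 and STMN2 by choice. TFAP2B, an AP-2 factor of crest derivatives and hindbrain neurons, stood at 160.3 and 246 CPM against 1.65 and 3.1 CPM (log2 fold change 6.69, SE 0.26, adjusted p = 5.68e-17), in 52 members. ONECUT1 stood at 130.4 and 139 CPM against 0.825 and 0.931 CPM (log2 fold change 7.48, SE 0.35, adjusted p = 1.44e-15). CRABP1 stood at 12109.9 and 22094 CPM against 234 and 213 CPM (log2 fold change 6.53, SE 0.42, adjusted p = 0.0071). CBFA2T3 had 1 and 5 UMI in progenitors, and the fold changes of genes this scarce depend on the prior count. Named falls were SHH, COLEC12, SLC7A11, PLCE1, THBS1 and DSN1. SHH, the ventral signal of the floor plate, had 2 UMI in all members, 0.0177 times the pooled level of the reference (counting interval 0.00214 to 0.0642), and stood at 75.1 and 103 CPM in progenitors. SLC7A11, a cystine transporter, stood at 6.41 and 1.30 CPM against 133 and 139 CPM (log2 fold change -5.02, SE 0.41, adjusted p = 2.55e-10).

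Of 29 HOX genes 6 had enough counts to test, and 5 were higher and 0 lower against all other barcodes (median 1.63; 3 and 0 with DESeq2): HOXB2, HOXB3, HOXD3, HOXA2 and HOXA3. HOXB2, a hindbrain HOX gene, stood at 201 and 171 CPM against 28.3 and 33.1 CPM (log2 fold change 2.81, SE 0.18, adjusted p = 1.66e-19). In TUBB3/STMN2-positive barcodes with 10 or more UMI of TUBB3 and STMN2 it stood at 98.8 and 94.7 CPM, in 36.4% and 43.1% of cells. HOXA2 had a UMI in 36.5% and 42.0% of members and 40.9% and 24.1% of those barcodes. Against that set 1 of 3 HOX genes tested was higher and 0 lower (median 0.97). HOXB2 had a UMI in 65.4% and 63.0% of members, 12.8% and 15.2% of all other barcodes and 29.7% and 24.7% of collagen-rich barcodes, and after thinning to 2000 UMI in 30.8% and 29.6%, 5.06% and 5.35% and 2.70% and 6.82%. HOXB3 had a UMI in 17.3% and 11.1% of members and 18.9% and 13.5% of collagen-rich barcodes, so its share in members was not above that in collagen-rich ones. A UMI of HOX groups 5 to 13 was found in 4 members and of the forebrain and midbrain factor OTX2 in 4. Of 8 forebrain and midbrain genes tested 3 were higher and 1 lower (1 and 0 with DESeq2), and the higher ones were sparse: PAX5 came from 1 cell, LHX2 from 7 and SIX6 from 23. By edgeR 17.6% of all genes tested were higher and 18.4% lower, so the 1 lower gene was near the background.

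Of 40 axon guidance genes 19 were higher and 6 lower against all other barcodes (median 0.54; 14 and 4 with DESeq2), with a median of 0.22 when members needed 5 or more UMI of INSM1, HES6 and DLL3. Of 32 neural adhesion genes 8 were higher and 6 lower (median 0.18; 4 and 2 with DESeq2), and at 5 or more UMI 3 were higher and 8 lower (median -0.28). Over all genes tested 17.6% were higher and 18.4% lower by edgeR, so the edgeR counts of adhesion genes and of lower guidance genes were near the background. DCC, the netrin receptor, stood at 894 and 689.5 CPM against 109 and 90.2 CPM (log2 fold change 3.21, SE 0.12, adjusted p = 2.57e-29), CNTN2, an early axonal adhesion protein, at 68.4 and 40.2 CPM against 2.92 and 3.44 CPM (log2 fold change 4.24, SE 0.39, adjusted p = 1.55e-13), and ROBO3, the receptor of commissural axons, at 29.9 and 31.1 CPM against 4.33 and 3.02 CPM (log2 fold change 3.32, SE 0.46, adjusted p = 4.25e-08) in 15 cells. SLIT2, a repellent secreted by the midline, stood at 115 and 67.4 CPM against 513 and 540.2 CPM (log2 fold change -2.36, SE 0.16, adjusted p = 9.85e-15). Of 19 stress genes 3 were higher, near the background, and 9 lower (median -1.16). FOS was among the lower, at 77.0 and 80.4 CPM against 256 and 313 CPM. Of 81 ribosomal protein genes 68 were higher and 1 lower (median 0.47), and 2 were higher when library was left out of the fit and 39 among barcodes of 5000 to 15000 UMI. Against TUBB3/STMN2-positive barcodes with 10 or more UMI of TUBB3 and STMN2, described below, 0 of 81 were called in either direction (median 0.098).

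Another set, TUBB3/STMN2-positive barcodes with 2 or more UMI of these genes, at least 1 UMI of ELAVL3 or ELAVL4 and no INSM1, HES6, DLL3 or DBH (218 and 264 barcodes), was meant to hold later neurons. The data went against that name, since TOP2A stood at 216 and 234 CPM, near all other barcodes at 197 and 192 CPM. The summed G2 and M level was 1958 and 1916 CPM, against 725 and 835 CPM in members. SOX2 stood at 245 and 268 CPM, near all other barcodes at 245 and 252 CPM, but members were similar at 235 and 271 CPM. Against it 1217 of 11668 genes (10.4%) were higher and 1169 (10.0%) lower (20.4% in either direction), with a median of -0.03 over all genes tested. Named rises were PPP1R14A, CBFA2T3, GADD45G, CRABP1, LZTS1, EYA2 and OLFM1, and named falls COL2A1, PPARGC1A, HES1, IQGAP2, P3H2 and PTPN14. GADD45G stood at 124 and 187 CPM against 15.0 and 20.2 CPM (log2 fold change 3.34, SE 0.25, adjusted p = 2.06e-09) and HES1 at 15.0 and 6.48 CPM against 71.6 and 88.6 CPM (log2 fold change -2.85, SE 0.35, adjusted p = 2.31e-06). PPP1R14A, an inhibitor of myosin phosphatase, stood at 72.7 and 57.0 CPM against 2.05 and 9.85 CPM, and LZTS1 at 197 and 129.6 CPM against 27.3 and 19.2 CPM. COL2A1, a cartilage and notochord collagen, stood at 10.7 and 7.78 CPM against 77.8 and 72.6 CPM, PPARGC1A, a coactivator of mitochondrial genes, at 10.7 and 5.18 CPM against 64.1 and 58.1 CPM, and IQGAP2, a scaffold protein, at 6.41 and 13 CPM against 79.8 and 86.6 CPM. In each of these 7 genes the libraries of the 2 units did not overlap. EYA2, a placodal and ganglionic cofactor, stood at 325 and 207 CPM against 35.5 and 42.5 CPM (log2 fold change 2.90, SE 0.21, adjusted p = 5.53e-10). CRABP1 stood at 12109.9 and 22094 CPM against 1709 and 2437 CPM (log2 fold change 3.21, SE 0.35, adjusted p = 0.042), and its call was lost without the filter on low counts (adjusted p = 0.065).

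A stricter set with 10 or more UMI of TUBB3 and STMN2 (44 and 58 barcodes), added after seeing the data, matched the members more closely in STMN2, at 1988 and 3044 CPM, and in depth, with medians of 7972 and 9100 UMI. Against it 103 of 9554 genes (1.08%) were higher and 120 (1.26%) lower (2.33% in either direction), with a median of 0.00030 over all genes tested. Of 34 pan-neuronal genes 1 was higher and 2 lower (median 0.02). Of 18 subtype factors 0 were called in either direction (median 0.34). Of 15 granule and transmitter genes 1 was higher and 1 lower (median 0.35), and SCG2 did not pass (log2 fold change 0.50, adjusted p = 0.42). Neurogenic transition genes had 11 of 26 higher and 0 lower (median 0.84). GADD45G stood at 124 and 187 CPM against 11.0 and 7.90 CPM (log2 fold change 4.14, SE 0.42, adjusted p = 1.52e-05), ST18 at 124 and 95.9 CPM against 24.7 and 11.8 CPM (log2 fold change 2.68, SE 0.36, adjusted p = 2.88e-04), CBFA2T3 at 74.8 and 53.1 CPM against 11.0 and 11.8 CPM (log2 fold change 2.47, SE 0.49, adjusted p = 0.0096) and CDKN1C at 524 and 555 CPM against 176 and 195 CPM (log2 fold change 1.58, SE 0.18, adjusted p = 3.75e-05). In these 4 genes the libraries of the 2 units did not overlap.

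Of 20 Notch genes tested against this set 2 were higher and 1 lower (median 0.08). DLL1 stood at 42.8 and 76.5 CPM against 8.24 and 1.97 CPM (log2 fold change 3.75, SE 0.62, adjusted p = 0.0022) and MAML3, a coactivator of Notch transcription, at 507 and 347 CPM against 176 and 227 CPM, both higher, and HES1 at 15.0 and 6.48 CPM against 32.9 and 45.4 CPM (log2 fold change -1.98, SE 0.46, adjusted p = 0.029) was lower. PAX6 stood at 252 and 249 CPM against 115 and 114 CPM (log2 fold change 1.17, SE 0.21, adjusted p = 0.0046), POU3F2 at 119.7 and 111 CPM against 24.7 and 39.5 CPM and RFX4 at 357 and 284 CPM against 143 and 164 CPM, and these progenitor genes were higher in the newborn neurons too, as was PAX3. VIM, a filament of progenitors, was lower, at 1236 and 1264 CPM against 2199 and 1715 CPM. Adhesion genes went the other way, with 0 of 29 higher and 8 lower (median -0.72): NRXN3, a presynaptic adhesion protein, stood at 406 and 443 CPM against 1370.1 and 1401 CPM (log2 fold change -1.67, SE 0.14, adjusted p = 5.44e-06) and NLGN1, a postsynaptic adhesion protein, at 755 and 559 CPM against 1304 and 1173 CPM. The guidance receptor ROBO1 was lower at 1293 and 659.7 CPM against 3179 and 2183 CPM (log2 fold change -1.46, SE 0.14, adjusted p = 1.52e-05) and DCC higher at 894 and 689.5 CPM against 340.5 and 197 CPM (log2 fold change 1.64, SE 0.17, adjusted p = 1.52e-05). PENK was lower, at 197 and 205 CPM against 283 and 584 CPM (log2 fold change -1.05, SE 0.21, adjusted p = 0.011), in the direction opposite to the comparison with 2 or more UMI (0.96). PENK in this reference came from 1 of 44 barcodes in replicate 1 and 7 of 58 in replicate 2. Its share of cells, 9.62% and 7.41% in members and 2.27% and 12.1% in the reference, differed in opposite directions in the replicates.

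Of 22 S phase and 26 G2 and M genes tested against the stricter set 0 were called in either direction by edgeR (medians 0.34 and 0.01), and 0 of them had an unadjusted p under 0.05. The 2 libraries of that set differed, with summed G2 and M levels of 1606 and 304 CPM, and members at 725 and 835 CPM lay between them. A difference in division genes between newborn neurons and these barcodes was not detectable here. CRABP1, the leading gene against all other barcodes, did not pass against the stricter set, at 12109.9 and 22094 CPM against 3784 and 7728 CPM (log2 fold change 1.63, adjusted p = 0.40). Nor did ONECUT1 (0.40), ONECUT2 (0.17), NRN1 (0.50) or OLFM1 (1.16). Of the other rises named against all other barcodes, CBFA2T3, LZTS1, IGFBPL1, TP53I11, ST18 and DDC did pass.

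Within the members, cells were divided by their summed count of INSM1, HES6 and DLL3 into 4 bands, with limits set after seeing the data, and the levels below are descriptions with no test. Median depth was 8160 UMI per cell in the band of 3 to 4 UMI (17 and 24 cells) and 10683 in the band of 20 or more (10 and 20 cells), so a higher sum goes with deeper cells. GADD45G stood at 58.2 and 91.8 CPM in the lowest band and 399 and 323 CPM in the highest, CDKN1C at 218 and 347 CPM and 1324 and 798 CPM, and DLL1 at 14.6 and 30.6 CPM and 72.6 and 166 CPM. HOXB2 stood at 58.2 and 71.4 CPM and 245 and 309 CPM. For each, both libraries of the highest band lay above both of the lowest. The bands between did not always follow in order. GADD45G in replicate 1 stood at 41.2 CPM in the band of 5 to 9 UMI and 10.1 CPM in that of 10 to 19. HOXB2 in replicate 1 was highest in the band of 10 to 19 UMI, at 324 CPM.

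STMN4, a stathmin of differentiating neurons, showed the reverse, at 400.1 and 438 CPM in the lowest band and 0 and 4.75 CPM in the highest. MGAT4C stood at 386 and 173 CPM and 0 and 19 CPM, HAND2 at 160.1 and 245 CPM and 9.07 and 42.8 CPM, and PENK at 538 and 551 CPM and 0 and 0 CPM. PENK in the lowest band came from 1 and 4 cells. ELAVL4 differed less between bands, at 560.2 and 612 CPM and 635 and 784 CPM, and STMN2 was lower in the highest band, at 2888 and 3273 CPM and 2032 and 2105 CPM. Members with the most INSM1, HES6 and DLL3 had the most GADD45G and DLL1 and almost no STMN4 or MGAT4C.

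**Figure D5:**
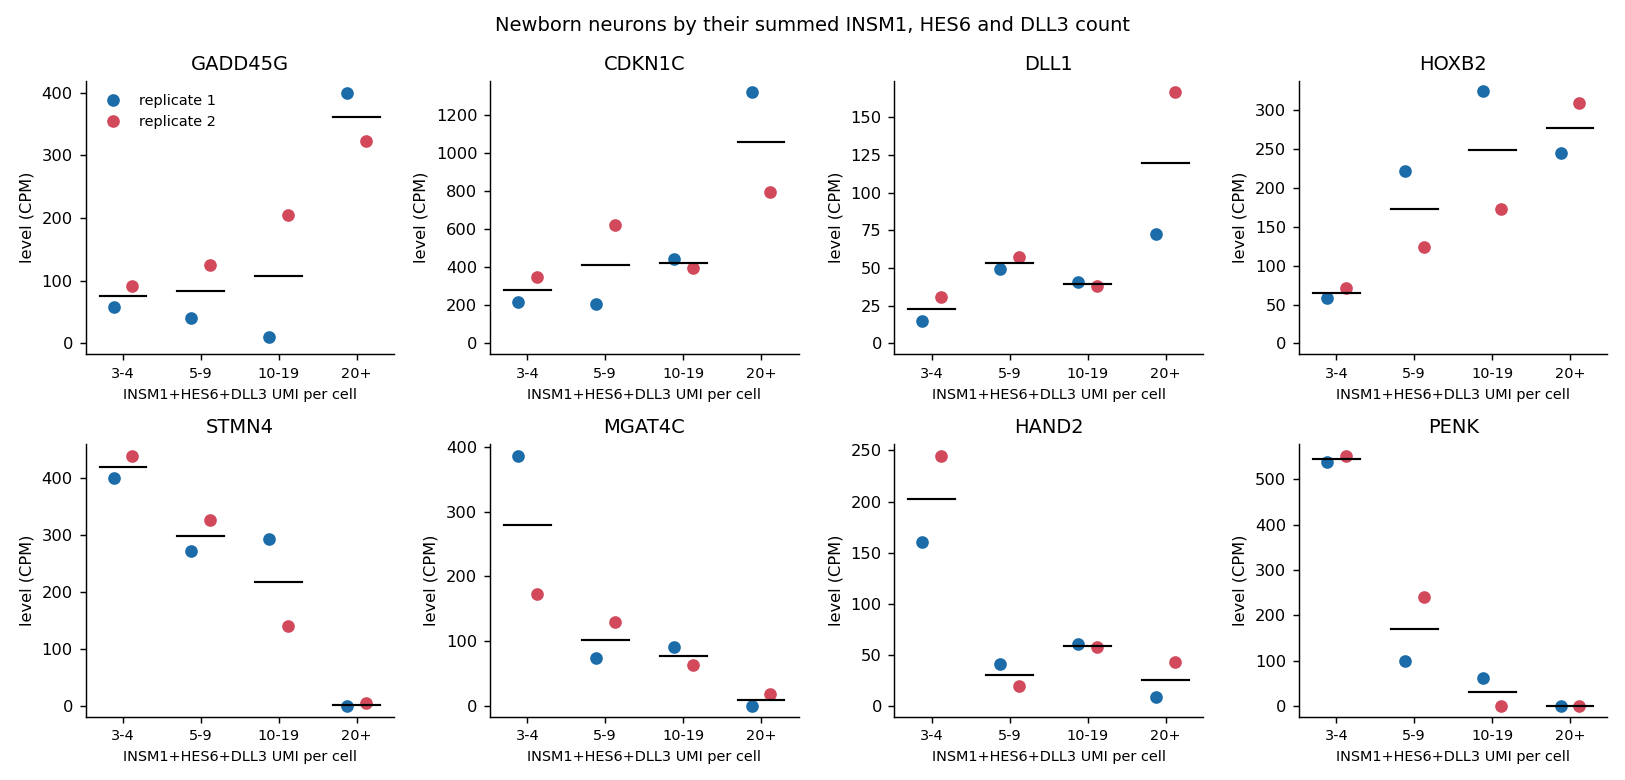
Level in CPM (vertical axis) of 8 genes in members grouped by their summed INSM1, HES6 and DLL3 UMI (horizontal axis), with 1 point per library and a black line at the mean. GADD45G, CDKN1C and DLL1 are highest in the band of 20 or more UMI, and STMN4 (0 and 4.75 CPM there) and PENK are lowest.

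GFP has a row in the deposited table, and the labels do not say which cells carry it. It had a UMI in 130 of 133 members. After thinning to 2000 UMI the share was 94.2% and 95.1% in members, 63.3% and 66.4% in all other barcodes and 13.5% and 28.4% in collagen-rich barcodes. Its level was 2535 and 2507 CPM against 1596 and 1755 CPM (log2 fold change 0.82, SE 0.10, adjusted p = 2.43e-09). Against progenitors the log2 fold change was 0.75 (adjusted p = 1.69e-07), and against the stricter TUBB3/STMN2-positive set it was 0.10 (adjusted p = 0.78), which did not pass. Both libraries of members were above both libraries of all other barcodes, and the stricter set stood at 2386 and 2461 CPM.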

How the data were processed

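Single cells of day 25 bovine chimeric embryos were measured in 2 libraries with the 10x 3′ kit v3.1, per the labels' protocols. The table deposited by the authors holds raw counts of UMI, with 17846 gene rows and 4437 barcodes, 1973 and 2464 per library with 11182089 and 15427708 UMI. Per the submitters' processing notes the tools were Cell Ranger, R 4.1.2 and Seurat 4.3.0 with build bosTau9, and their parameters are not given in the sources used here. Column prefixes gave the library, and 0 columns of other samples were present. XIST was not analysed.

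Counts were summed per unit of cells and library. They were tested with edgeR 4.0.16 (R 4.3.3; filterByExpr, TMM, glmQLFit, library as an additive term), with Benjamini-Hochberg adjustment over all genes tested and a threshold of 0.05. The residual degrees of freedom were 1 against all other barcodes and 2 elsewhere. The median prior degrees of freedom, shared across genes, were 54.4 against all other barcodes. They were 24.1 against progenitors and TUBB3/STMN2-positive barcodes and 14.9 against the stricter set. Small p-values thus rest largely on variance pooled over genes. Each SE is the absolute log2 fold change divided by the square root of the edgeR F statistic. The fit was run in its robust form, in which the prior degrees of freedom can differ between genes. The same ratio of fold change to SE can therefore give different p-values. TMM factors of 0.865 to 1.15 place fitted fold changes above the plain CPM ratios, so small fitted rises can meet equal CPM. The replicate numbers name the libraries that hold both units, which makes library the block of the main fit.

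The genes of the rule were given no test. Named genes were the 12 largest rises and 8 largest falls against all other barcodes, and 8 and 6 in the other comparisons, among those with at least 50 CPM in the higher unit, the same direction in both libraries and an adjusted p under 0.05. PENK and GFP were always given. Some genes of this rule and of the lists are not reported here by name. The members and the 16 lists were chosen with earlier results of these data known, and lists share a few genes (PAX5, EN2, LHX2, BTG2). From the ribosomal pattern, kinases and paralogue-like symbols were left out, which leaves 82 genes. The reference with 10 or more UMI of TUBB3 and STMN2 was chosen after seeing the data. DESeq2 1.42.0, RLE scaling, no filter, no library term, other UMI limits and a depth window were alternatives. Scrublet in scanpy 1.11.5 called doublets. On simulated counts with 200 changed genes the edgeR step recovered 48% of 2-fold and 88% of 4-fold changes against all other barcodes, on 13436 genes. The changed genes were drawn from well-counted genes, with the same dispersion for all genes and no library effect. Recovery of sparse genes was therefore not simulated. Counting intervals are at 95% and cover counting error only.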

Additional observations from a re-analysis of the deposited data

How the results depend on the processing

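Of 53 named gene results under 599 alternatives 562 stayed the same, 8 lost the call, 2 reversed and 27 moved in value when a library was left out. No test can be run with 1 library, since no residual degrees of freedom are left, so values with a library left out are values only. The 562 include 43 of these without replicate 1 and 36 without replicate 2, which have no side of the threshold to keep. They also include 53 without doublet calls and 53 without barcodes found in both libraries, settings that removed no member. The share of newborn neurons was 2.82% without replicate 2 and 3.50% without replicate 1. It was 2.18% with INSM1, HES6 and DLL3 at 5 or more UMI, 3.87% at 2 or more, and 5.32% among barcodes of 5000 to 15000 UMI. With DESeq2, 1002 genes were higher and 745 lower against all other barcodes, 1856 and 1512 against progenitors, and 517 and 353 against TUBB3/STMN2-positive barcodes. The DESeq2 counts of the lists are to be read beside these numbers. Without the replicate block 2062 were higher and 2222 lower against all other barcodes, 2720 and 2511 against progenitors, and 802 and 858 against TUBB3/STMN2-positive barcodes. Against those with 10 or more UMI, 103 were higher and 120 lower, with fewer cells in the sums. PENK against TUBB3/STMN2-positive barcodes reversed to -0.52 with 5 or more UMI of the 3 genes (adjusted p = 0.087) and to -1.05 against the reference of 10 or more UMI (adjusted p = 0.011), and the cause was not tested. Calls were lost without the block for KLK1 (adjusted p = 0.077) and for GFP against TUBB3/STMN2-positive barcodes (0.18), and without the filter for CRABP1 there (0.065). The other losses, all against TUBB3/STMN2-positive barcodes, were CRABP1, OLFM1, PTPN14 and GFP with the reference of 10 or more UMI and PENK at 2 or more UMI of the 3 genes. Sparse genes limit precision, since 133 cells gave under 20 UMI for DLL4, HES4 and NEUROG2.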
